A study of Rattus norvegicus with 9 samples.

Results

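The genes described here are Fancc, Sprr1a, Dclk1, Klhl41, Hmga1, Slc17a6 and Csrnp1, 7 of the 14217 genes named on the array. They were picked because earlier results of these data showed a strong increase after angiotensin II (Ang II) and little or none after raised potassium. All probe sets that the platform annotation gives to one of them alone were taken, which made 12 of the 31042 probe sets that were not controls. They were thus selected on the signals after both stimuli against control, so the values of these genes are given as a description, without tests. Freshly dispersed cells of the rat adrenal zona glomerulosa, the outer cortical layer that makes aldosterone, were held for 2 h at 37 °C in medium with fatty acid free albumin. One tube of each of 3 independent cell preparations was left untreated (control), 1 received 100 nM Ang II and 1 received 16 mM potassium, and each tube was read on 1 Affymetrix whole-genome array. The strain, sex and age of the rats, how many were pooled in a preparation and the potassium of the control medium are not stated in the labels.

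Ang II acts on a G protein coupled receptor of glomerulosa cells that, through phospholipase C, releases calcium from stores and activates protein kinase C. Potassium depolarises the same cells and lets calcium in through voltage-gated channels, and both stimuli raise aldosterone output. Genes that respond early to such signals often carry sites for AP-1, a dimer of Fos and Jun proteins that is a classical target of protein kinase C and MAP kinase signalling. The 7 genes have no common function. Fancc encodes a subunit of the Fanconi anaemia core complex, which attaches ubiquitin to FANCD2 during repair of DNA crosslinks. Sprr1a encodes a small proline-rich protein of the cornified envelope that is also induced in injured neurons and stressed heart muscle. Dclk1 encodes a doublecortin-like kinase that binds microtubules, and short forms of it were found in rat brain as activity-induced transcripts. Klhl41 encodes a Kelch-like protein of muscle sarcomeres, an adaptor of the ubiquitin ligase cullin 3. Hmga1 encodes an architectural chromatin protein that binds AT-rich DNA. Slc17a6 encodes the vesicular glutamate transporter VGLUT2, and Csrnp1 encodes a nuclear protein known as a transcriptional activator and as a gene raised by axin.

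The stretches before the gene starts were examined for known motifs, because genes that respond to one stimulus may carry the same sites. The RefSeq promoter table (build GRCr8) held 6 of the 7 genes, all but Csrnp1. The 250 bases before the start of Sprr1a and of Dclk1 each held 2 copies of the AP-1 motif TGANTCA, which reads nearly the same on both strands. They are shown for those copies, 5′ to 3′ on the strand of the gene, with the AP-1 motif in capitals and, in Sprr1a, also the TATA box TATAAA. Klhl41 is shown for its match to the MEF2 site, the element of a muscle transcription factor family, in capitals. Sprr1a lies at chr2:180752626-180752875 on the minus strand, Dclk1 at chr2:141782634-141782883 on the plus strand and Klhl41 at chr3:74841868-74842117 on the plus strand.
Sprr1a: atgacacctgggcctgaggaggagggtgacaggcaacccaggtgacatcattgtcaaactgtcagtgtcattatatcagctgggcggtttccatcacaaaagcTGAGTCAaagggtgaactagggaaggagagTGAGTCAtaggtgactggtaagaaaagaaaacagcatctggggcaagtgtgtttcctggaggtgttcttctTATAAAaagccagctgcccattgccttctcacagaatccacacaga
Dclk1: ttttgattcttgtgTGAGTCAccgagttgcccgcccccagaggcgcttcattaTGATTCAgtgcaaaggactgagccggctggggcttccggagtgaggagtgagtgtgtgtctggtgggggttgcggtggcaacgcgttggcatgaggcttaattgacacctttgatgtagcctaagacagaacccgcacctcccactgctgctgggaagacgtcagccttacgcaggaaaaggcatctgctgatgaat
Klhl41: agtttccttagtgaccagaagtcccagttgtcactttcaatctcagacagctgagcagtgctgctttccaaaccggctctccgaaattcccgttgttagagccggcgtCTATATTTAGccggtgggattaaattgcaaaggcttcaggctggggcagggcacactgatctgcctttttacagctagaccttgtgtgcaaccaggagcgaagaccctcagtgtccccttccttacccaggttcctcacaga

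In Sprr1a the AP-1 copies began 147 and 117 bases before the start and the TATA box 46 bases before it. In Dclk1 the copies began 236 and 197 bases before the start in the table, and Dclk1 is known to have further starts that the table does not hold. Of all 33469 promoters in the table, 6.34% held TGANTCA in this window and 0.311% held it at least 2 times. The MEF2 site of Klhl41 began 142 bases before the start, and 0.523% of all promoters held one. The upstream windows of Fancc, Klhl41, Hmga1 and Slc17a6 held no TGANTCA, so 2 of the 6 genes searched carried it. Hmga1 held 5 copies of the GC box GGGCGG, found in 30.5% of all promoters, and 1 of the EGR motif GCGNGGGCG, found in 4.29%, which overlapped a GC box. The motif AGAGTG, bound by CSRNP proteins, was present once in Fancc, Sprr1a and Slc17a6 and in 14.1% of all promoters. In Sprr1a it overlapped the AP-1 copy nearer to the start. Both strands were searched, and no member held the cyclic AMP response element TGACGTCA (1.59% of promoters), the Nr4a motif AAAGGTCA (1.24%), the STAT motif TTCNNNGAA (7.67%) or the CArG box of serum response factor (1.5%). These matches describe the letters of the windows and were not linked to binding.

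**Figure D1:**
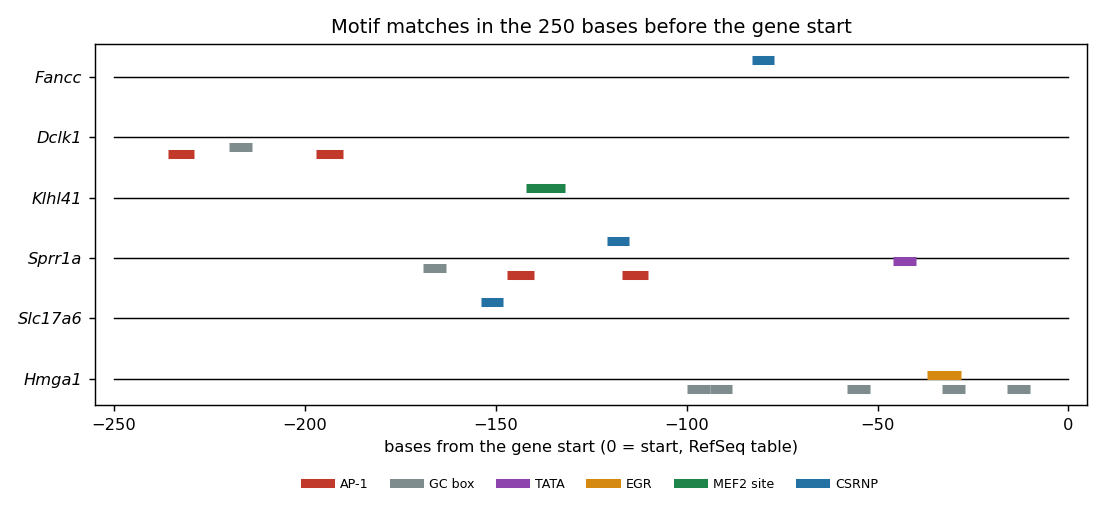
Matches to motifs in the 250 bases before the gene start of the 6 genes with an entry, plotted by distance from the start in bases, 1 bar per match. Colours mark the motif, and the small vertical offsets only separate motifs. Sprr1a and Dclk1 each carry 2 AP-1 matches, and Hmga1 carries 5 GC boxes within 100 bases of its start.

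At its leading probe set, the tested one with the smallest p after Ang II, each of the 7 genes read higher in every Ang II tube than in any control or potassium tube. Such separation of Ang II from control was seen at 7.30% of all 18625 tested probe sets, and from both groups at 2.81%. The median log2 fold change of the 7 leading probe sets was 1.66 after Ang II and 0.20 after potassium, against -0.03 and -0.02 over all tested probe sets. These figures follow from how the genes were picked. The 7 genes differed in their answer to potassium, and fell into 3 kinds. Potassium tubes overlapped the controls for Fancc, Dclk1 and Klhl41. They lay between control and Ang II for Sprr1a and Csrnp1, where 7.84% of all tested probe sets had every potassium tube above every control. They lay below every control for Slc17a6 and Hmga1, as at 9.78% of tested probe sets. "Raised only by angiotensin II" therefore describes the first 3 genes and Slc17a6, and not Sprr1a and Csrnp1. Slc17a6 also read lower after potassium, at dim signals. The label describes Hmga1 poorly, because the rise of that gene after Ang II (0.46) was smaller than its fall after potassium (-1.26).

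**Figure D2:**
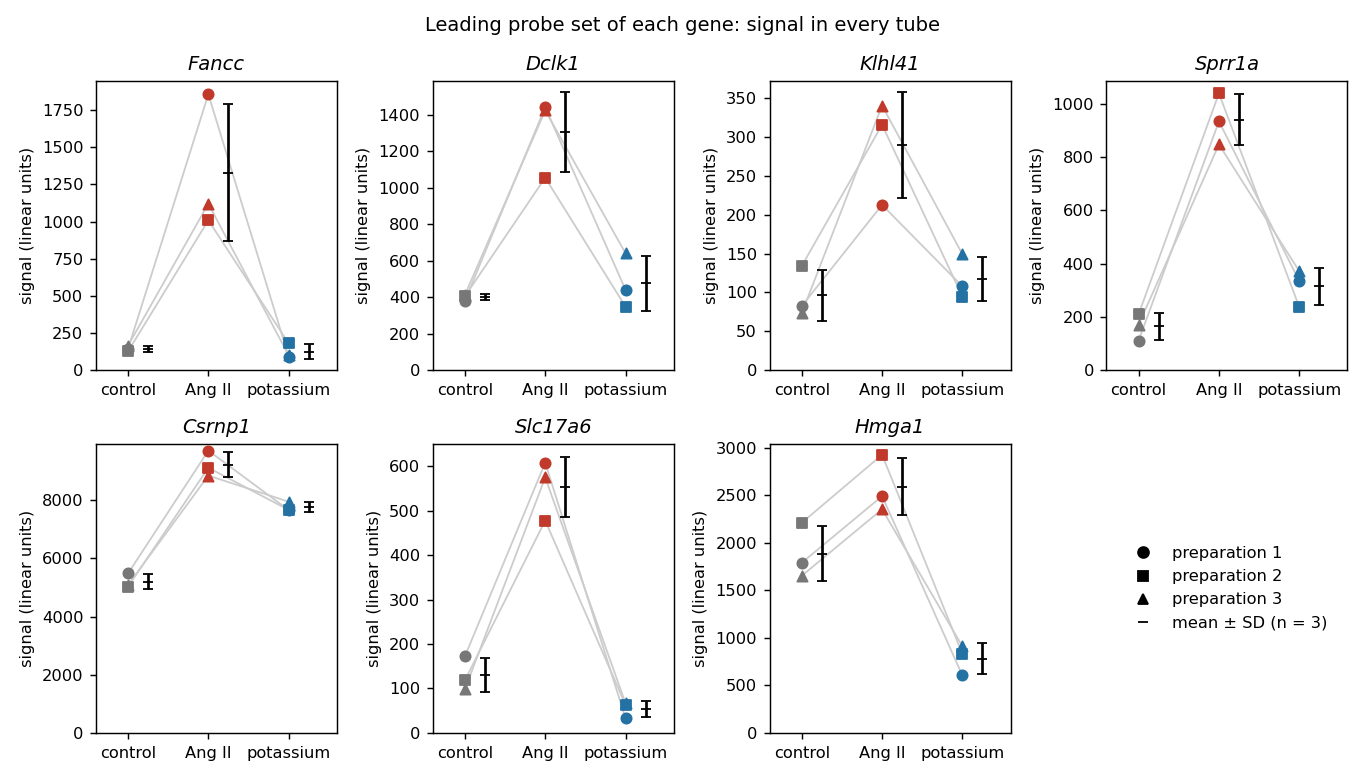
Signal (linear units) of the leading probe set of each gene in the 9 tubes, with grey lines joining the tubes of 1 preparation and bars showing the mean ± SD of 3 tubes. Each vertical axis starts at 0 and has its own scale. Ang II tubes stand above all others in each panel, while potassium tubes are near control (Fancc, Dclk1, Klhl41), between (Sprr1a, Csrnp1) or below control (Slc17a6, Hmga1).

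Fancc showed the largest increase. The signal of its leading probe set, 1377226_at, was 143, 127 and 165 in the control tubes of preparations 1, 2 and 3. In the Ang II tubes it was 1856, 1009 and 1119.9. In the potassium tubes it was 91.0, 180.5 and 99.1, a range that enclosed the controls. The mean log2 fold change, taken on log2(signal + 16) within preparations, was 3.02 ± 0.48 after Ang II (SD, n = 3), or 8.09-fold, the largest of all tested probe sets. After potassium it was -0.26 ± 0.62, with 1 of 3 preparations higher.

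The other probe sets of Fancc gave smaller differences. Probe set 1368616_at had control signals of 145.5, 56.5 and 124, and Ang II signals of 219, 316 and 308. Its log2 fold change was 1.31 ± 0.83 after Ang II and -0.13 ± 0.95 after potassium. Probe set 1379991_at, the dimmest of the 3, had control signals of 101, 80.3 and 148 and Ang II signals of 216.5, 152 and 179, with a log2 fold change of 0.68 ± 0.38 after Ang II and -0.09 ± 0.56 after potassium. All 3 probe sets were thus higher in every Ang II tube than in any control tube, by 8.09-, 2.49- and 1.60-fold. Which transcripts each of them reads was not tested.

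Dclk1, the microtubule-binding kinase, was steady in the controls, where its leading probe set 1387276_at read 381, 405 and 413. The Ang II tubes read 1441, 1055.0 and 1424. The potassium tubes read 440.4, 348 and 641, so that 1 lay below the controls and 2 above. The log2 fold change was 1.66 ± 0.28 (3.15-fold) after Ang II and 0.20 ± 0.41 after potassium.

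The array carries 3 more probe sets for Dclk1, of which 2 were bright enough to be tested. Probe set 1389706_at read 57.1, 69.6 and 127 in the controls and 156.5, 155 and 148 after Ang II, a log2 fold change of 0.81 ± 0.55. Probe set 1369686_at read 128, 121 and 138 in the controls and 146, 304 and 162 after Ang II, so that its mean of 0.54 ± 0.60 came largely from preparation 2 (1.23, against 0.18 and 0.20). Both had a log2 fold change near 0 after potassium, -0.09 ± 0.60 and -0.10 ± 0.15. The fourth, 1380429_at, had a mean signal of 14.7 over the 9 tubes and was left out of the tests as too dim. Its potassium tubes, at 16.9, 39.5 and 8.85, were all above its controls, at 1.85, 7.87 and 6.66, and its Ang II tubes overlapped both.

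Klhl41, the sarcomere protein, had 1 probe set, with control signals of 82.6, 134 and 73.3. The Ang II tubes read 213, 316 and 340.4, and the potassium tubes 108, 94.7 and 149. Its log2 fold change was 1.45 ± 0.47 (2.74-fold) after Ang II, lowest in preparation 2 (1.14) and highest in preparation 3 (2.00). After potassium it was 0.26 ± 0.67, with 2 of 3 preparations higher.

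Sprr1a was also higher after potassium than in the controls, though below its Ang II level. Its control tubes read 111, 210.2 and 171, its potassium tubes 335, 237 and 371, and its Ang II tubes 933, 1038 and 847. None of the 3 groups overlapped. The log2 fold change was 2.44 ± 0.40 (5.44-fold) after Ang II and 0.89 ± 0.67 (1.86-fold) after potassium, the latter spread from 0.16 in preparation 2 to 1.46 in preparation 1. Potassium thus gave 36.5% of the Ang II change on the log2 scale.

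Csrnp1, the nuclear activator, was bright and varied little between preparations. It read 5481, 5026 and 5086 in the controls, 9701, 9114 and 8843 after Ang II and 7659, 7663 and 7947 after potassium. The groups again did not overlap. Its log2 fold change was 0.82 ± 0.03 (1.77-fold) after Ang II and 0.58 ± 0.08 (1.49-fold) after potassium, which is 69.9% of the Ang II change and the highest such share among the 7 genes. The difference between Ang II and potassium was 0.34, 0.25 and 0.15 in the 3 preparations.

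Slc17a6, the vesicular glutamate transporter, was higher after Ang II and lower after potassium. Its control tubes read 172, 118 and 98.1, and its Ang II tubes 608, 477 and 575. The potassium tubes read 32.8, 63.2 and 66.5, all below the lowest control. These signals are dim, since array medians over all probe sets ran from 128 to 172.9, so the size of the fall is uncertain. The log2 fold change was 1.99 ± 0.34 (3.98-fold) after Ang II and -1.06 ± 0.78 after potassium, the latter from -1.95 in preparation 1 to -0.47 in preparation 3. Between the stimuli the difference was 3.05 ± 0.55, or 8.29-fold.

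Hmga1, the chromatin protein, had the smallest increase and the largest decrease. It read 1789, 2209.7 and 1653 in the controls, and 2490.1, 2925 and 2352 after Ang II, so that the lowest Ang II tube was close to the highest control. The potassium tubes read 604, 829.8 and 911. The log2 fold change was 0.46 ± 0.05 (1.38-fold) after Ang II, and 0.47, 0.40 and 0.50 in the 3 preparations. After potassium it was -1.26 ± 0.37, a signal 2.40-fold lower than in the control. The gap between the stimuli at Hmga1 thus came mainly from potassium.

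**Figure D3:**
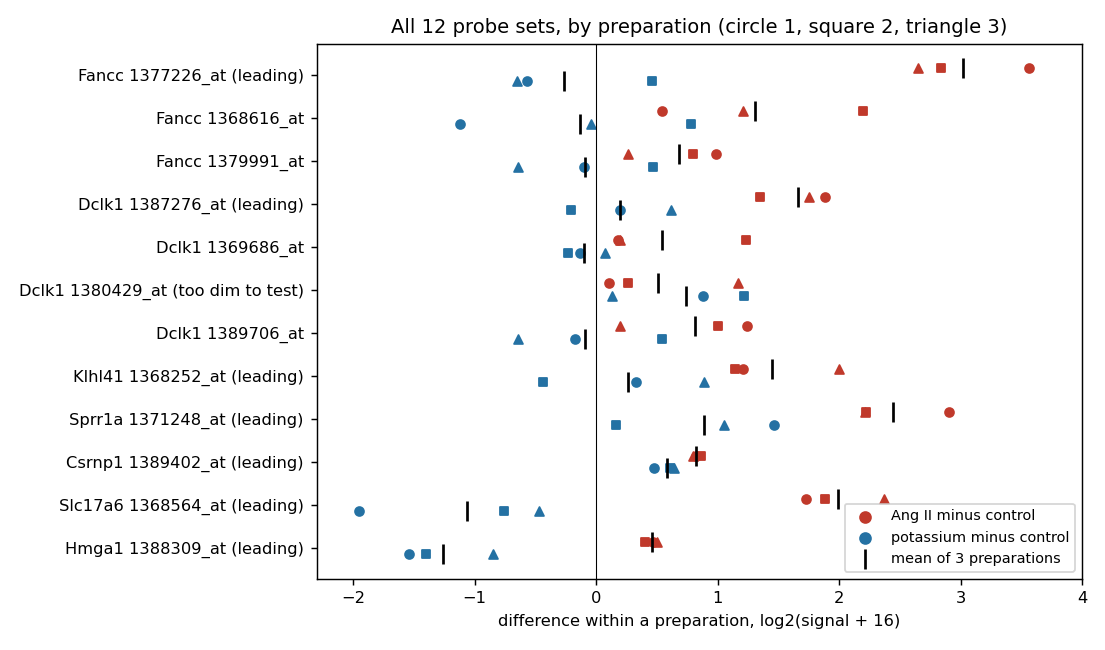
Difference from control on the log2(signal + 16) scale within each preparation, for all 12 probe sets of the 7 genes. Red marks Ang II, blue marks potassium, the symbol marks the preparation and the black tick the mean of 3. All 12 red means lie above 0, from 0.46 to 3.02, while the blue means run from -1.26 to 0.89.

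Over the 12 probe sets, the Ang II tube was above the control tube of the same preparation in all 3 preparations at each of the 12, and the potassium tube at 3. Over all tested probe sets the shares were 15.6% and 17.4%. The lowest Ang II tube stood above every control and potassium tube at 11, against 2.81% of all tested probe sets. It did not at 1380429_at, the 1 that was too dim to be tested. The filter for brightness used the mean of all tubes, those with Ang II included. These counts follow from how the genes were picked. Both stimuli were set against the same 3 control tubes, so the changes after each are not independent of one another.

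**Figure D4:**
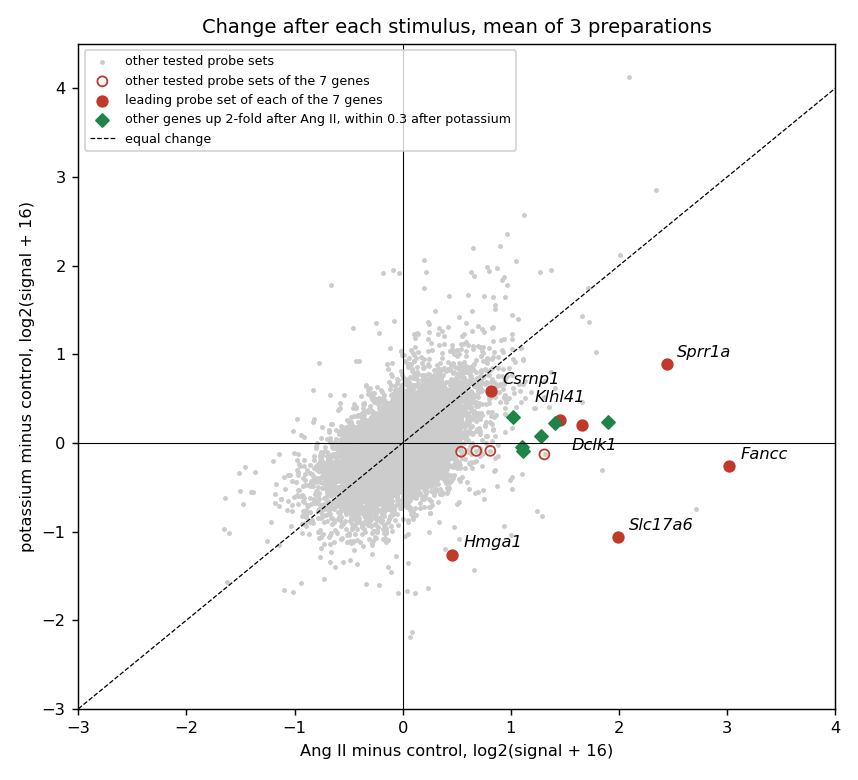
Mean log2 change after Ang II (horizontal) and after potassium (vertical) for the 18625 tested probe sets, with the 7 genes in red. Filled circles are leading probe sets, open circles other tested probe sets of the same genes, green diamonds other genes at least 2-fold higher after Ang II and within 0.3 after potassium, and the dashed line marks equal change. The 7 genes lie to the right of the dashed line, with Csrnp1 nearest to it.

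The rule gave no threshold. The member with the smallest Ang II change was Hmga1 (0.46) and the one with the largest share of it after potassium was Csrnp1 (69.9%). Within those bounds lay 314 probe sets, 1.69% of those tested, among them 204 other named genes, so that the 7 genes are a selection from a larger group. Among the others, Serpinb2, which encodes plasminogen activator inhibitor 2, had the largest Ang II change (2.71 after Ang II and -0.75 after potassium). Next came Srxn1, which encodes sulfiredoxin (1.90 and 0.24), Vom2r53 (1.79 and 1.02) and Tubb4a (1.41 and 0.62). They were followed by Mmp3, which encodes stromelysin 1 (1.41 and 0.22), and Ucn2, which encodes urocortin 2 (1.35 and 0.40). Then came Slit2, which encodes a guidance protein (1.31 and 0.70), and Homer1, which encodes a postsynaptic scaffold (1.30 and 0.51). Tubb4a, Ucn2, Slit2 and Vom2r53 read low in the controls, with means of 130, 79.7, 54.0 and 48.6. The SD of their Ang II change was 0.87, 1.03, 0.50 and 0.49, and of their potassium change 1.87, 0.74, 1.07 and 0.46. Some members read low in the controls as well. Leading probe sets of Sprr1a, Fancc, Slc17a6 and Klhl41 had control means of 164, 145, 129.5 and 96.6. The medians of the arrays over all probe sets ran from 128 to 172.9. Tubb4a had 3 tested probe sets and Homer1 had 4, and each value is that of 1 of them.

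A narrower reading, chosen after the values were seen, took a log2 change of at least 1 after Ang II and within 0.3 of 0 after potassium. It held 11 probe sets, 4 of them of Fancc, Dclk1 and Klhl41, 1 with no gene name and 6 of 5 other genes. These were Srxn1, Mmp3, F3, which encodes tissue factor, Msmp and Clcf1, which encodes a cytokine of the interleukin 6 family. F3 read 372, 407.5 and 425 in the controls, 1021, 699.7 and 974 after Ang II, and 334, 422 and 373 after potassium, with no overlap between Ang II and the other tubes. Srxn1 was represented by 2 probe sets, at 1.90 ± 0.29 and 1.28 ± 0.36 after Ang II. Msmp was less even, with potassium tubes from 47.8 to 332 and a potassium SD of 1.36 on the log2 scale. Clcf1 read 954, 768 and 572 after Ang II and 692, 317 and 406 after potassium, so those tubes overlapped.

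Genes with a profile like the mean of the 7 were ranked by Pearson's r to the mean standardised profile of the leading probe sets, over the 9 arrays after centring each preparation. The arrays share preparations and controls, so r describes likeness only. Each of the 7 is itself part of the mean, so its r is not comparable with those of other genes. The mean profile stood near Dclk1 (r = 0.993), Fancc (0.960) and Klhl41 (0.946), and farther from Sprr1a (0.922), Slc17a6 (0.914), Csrnp1 (0.750) and Hmga1 (0.688), so the ranking says least about the last 2. The 8 highest were Cryab (0.990), a small heat shock protein; Mlf1 (0.987); Spry2 (0.986), a feedback inhibitor of growth factor receptors; Zfp219 (0.983), a zinc-finger protein; Dst (0.982), a cytoskeletal linker; Pik3ca (0.980), a catalytic subunit of phosphoinositide 3-kinase; Mmp3 (0.979) and Arfgap3 (0.977). Zfp219 read 2372, 2256 and 2412 in the controls, 4498, 4242 and 4245 after Ang II and 2083, 2440 and 2417 after potassium. Its log2 change was 0.88 ± 0.06 after Ang II and -0.02 ± 0.15 after potassium. The smallest Ang II change among the 8 was that of Arfgap3, at 0.36 ± 0.03, beside -0.04 ± 0.13 after potassium. Pik3ca was measured by 6 tested probe sets, which did not agree in direction after Ang II, from -0.39 to 0.44, so its value is that of 1 probe set. Dst was measured by 2, at 0.52 and 0.73.

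Members apart, 12 genes were named in the narrower set or among the 8 most alike. The promoter table held 8 of them, and 4 of these had TGANTCA within 250 bases of the start, against 6.34% of all promoters. All 3 non-member genes of the narrower set with an entry held it. Of the members in that set, Dclk1 held it, and Fancc and Klhl41 did not. Spry2, Dst, Pik3ca and Arfgap3, from the genes most alike, had entries without it and are not shown. The 4 with the motif are shown with 20 bases on either side of it, in capitals, to set beside Sprr1a and Dclk1. The stretches are chr2:153958458-153958504 (plus strand) for Mlf1, chr8:12925190-12925236 (plus) for Mmp3, chr3:161064730-161064776 (plus) for Srxn1 and chr5:62635867-62635913 (minus) for Msmp. The motif began 113, 71, 62 and 122 bases before the start, in that order. Mlf1 also held TGACGTCA, 100 bases before its start. The genes were gathered by their values, so the share is a description.
Mlf1: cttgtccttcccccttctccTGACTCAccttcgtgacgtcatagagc
Mmp3: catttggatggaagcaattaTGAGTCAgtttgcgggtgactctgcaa
Srxn1: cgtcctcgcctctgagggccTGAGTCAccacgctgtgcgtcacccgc
Msmp: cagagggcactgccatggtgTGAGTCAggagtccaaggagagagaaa

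Genes related to the 7 were taken from lists by function, drawn up with earlier results of these data known, and were tested with limma, with Benjamini-Hochberg adjustment over all 18625 probe sets and a threshold of 0.05. A gene was represented by its brightest tested probe set. Over all probe sets 2.20% were called after Ang II, 5.36% after potassium and 4.79% between the stimuli. By direction, 1.66% were called higher after Ang II and 0.532% lower, 2.78% higher and 2.58% lower after potassium, and 3.09% higher and 1.70% lower with Ang II than with potassium. When each array was scaled to the median of all probe sets, the calls after Ang II went from 310 higher and 99 lower to 431 and 33, and those after potassium from 518 and 480 to 722 and 177. That scaling moved the median log2 change of all probe sets from -0.025 to 0.093 after Ang II and from -0.02 to 0.098 after potassium.

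No relative of Fancc was called. Of 12 other measured genes of the Fanconi anaemia pathway, limma called 0 in any comparison. At an unadjusted p under 0.05, 1 was lower after Ang II and 1 higher after potassium. Their median log2 change was -0.11 after Ang II, beside 3.02 at the leading probe set of Fancc. Fancl, the ubiquitin ligase of the complex, had a log2 fold change of -0.14 ± 0.20 (SE) after Ang II and -0.19 ± 0.20 after potassium. Fanca and Fancd2 were on the array but too dim to be tested.

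Nor was any of 5 other genes of the cornified envelope and epidermal barrier called by limma in any comparison, beside Sprr1a. At an unadjusted p under 0.05, 0 changed after Ang II and 1 was lower after potassium. The probe set of Sprr1b, the closest relative by name, was too dim to be tested and had mean signals of 145 ± 95.7 in the controls and 45.8 ± 18.6 after Ang II (SD, n = 3).

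Of the relatives of Dclk1, none was called after Ang II. Dclk2 had a log2 fold change of -0.08 ± 0.12 after Ang II and -0.06 ± 0.12 after potassium, from a control signal of 816 ± 17.8. Dclk3 and Dcx (doublecortin) were too dim to be tested. Of 15 other genes of the doublecortin family and of neuronal microtubule proteins, limma called 0 after Ang II, with 3 higher and 1 lower at an unadjusted p under 0.05. After potassium 1 fell, Map6, which encodes a microtubule stabiliser (-0.60 ± 0.14, adjusted p = 0.020 by limma). Map6 failed the test in 10 of the 20 other settings tried. It was also the 1 gene of the list called higher with Ang II than with potassium (0.62 ± 0.14, adjusted p = 0.018 by limma), a call lost in 8 settings. The 2 other tested probe sets of Map6 had the same directions but did not pass. They were at -0.52 and -0.66 after potassium and at 0.44 and 0.99 between the stimuli.

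Of 33 other genes of the Kelch-like and cullin 3 group, limma called 0 after Ang II, with 4 higher and 1 lower at an unadjusted p under 0.05. After potassium Klhl25 (0.47 ± 0.11) and Ivns1abp (0.32 ± 0.09) rose and Kbtbd2 fell (-0.31 ± 0.07), which failed the test in 10, 16 and 10 of the settings. Enc1 was higher with Ang II than with potassium (0.44 ± 0.10), a call that ended in 8. The 2 other tested probe sets of Enc1, at 0.62 and -0.18 in that comparison, did not pass. Klhl40, the nearest relative of Klhl41 in muscle, had a log2 fold change of 0.06 ± 0.12 after Ang II and -0.31 ± 0.12 after potassium and was not called (adjusted p = 0.89 and 0.19 by limma). Of 8 other measured genes of skeletal muscle and the sarcomere, limma called 0 after Ang II, with 1 higher at an unadjusted p under 0.05. The troponin gene Tnni1 fell after potassium (-1.54 ± 0.36), a call that ended in 7 of the settings.

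Of 9 other high mobility group and related chromatin proteins, limma called 0 after Ang II, also at an unadjusted p under 0.05. Smarce1 fell after potassium (-0.31 ± 0.07), a call that ended in 9 of the settings, beside -1.26 for Hmga1. The 2 other tested probe sets of Smarce1, at -0.30 and 0.19 after potassium, did not pass. Hmga2, the paralog of Hmga1, was too dim to be tested. Hmga1 pseudogenes exist in the rat genome, and whether its probe set also reads them was not tested.

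Of 9 other genes of the Slc17 family and of vesicular transmitter transport, limma called 0 in any comparison. At an unadjusted p under 0.05, 1 was higher and 1 lower after each stimulus. Slc17a7, which encodes the other main vesicular glutamate transporter, was too dim to be tested at both its probe sets.

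A relative of Csrnp1 was called after Ang II. Csrnp3 rose after Ang II from 125 ± 8.41 to 255 ± 32.7 (SD, n = 3), a log2 fold change of 0.94 ± 0.20 (SE, adjusted p = 0.020 by limma), a call that ended in 9 of the settings. After potassium its log2 fold change was 0.69 ± 0.20 (adjusted p = 0.059), so that it did not pass, and Ang II and potassium did not differ by the test (0.25 ± 0.20, adjusted p = 0.61). Csrnp2 had a log2 fold change of 0.05 ± 0.18 after Ang II. Among 18 genes of the CSRNP family and axin-Wnt signalling, Csrnp3 was the 1 called higher after Ang II and Wnt4, a signal of the zona glomerulosa, the 1 called lower (-0.32 ± 0.07, a call that ended in 10 settings). Wnt4 was also lower with Ang II than with potassium (-0.41 ± 0.07, lost in 3). Nkd1, an inhibitor of Wnt signalling, rose after potassium (0.49 ± 0.12, ended in 8). Of its other tested probe sets, 1 passed after potassium (0.58) and 1 did not (0.35, adjusted p = 0.084 by limma).

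Of 14 subunits and partners of AP-1, 3 rose after Ang II and none fell, beside 1.66% higher and 0.532% lower over all probe sets. The median log2 change was 0.22 after Ang II and 0.08 after potassium, against -0.03 and -0.02 over all tested probe sets. The 3 that rose after Ang II were Junb (0.46 ± 0.08, SE), Fosb (0.34 ± 0.06) and the small Maf protein gene Maff (0.32 ± 0.08). Their calls ended in 2, 4 and 13 settings. After potassium 3 rose, Junb (1.11 ± 0.08), Fosl2 (0.71 ± 0.11) and Jun (0.46 ± 0.06, lost in 1 setting), and Fosl1 fell. Over all probe sets 2.78% rose and 2.58% fell after potassium. Of the other tested probe sets of Jun, 1 passed after potassium (0.65) and 1 did not (0.37, adjusted p = 0.075 by limma). By the test of the difference, Fosl1 and Maff (0.41 ± 0.08, lost in 4 settings) were higher with Ang II than with potassium, Junb (-0.65 ± 0.08, lost in 1) and Fosl2 (-0.75 ± 0.11) were lower, and the other 10 did not pass.

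Fosl1, which encodes the AP-1 subunit Fra-1, had a pattern like that of Hmga1. Its mean signal was 3447 ± 236 in the controls, 4539 ± 344 after Ang II and 1507 ± 206 after potassium (SD, n = 3). The log2 fold change was 0.39 ± 0.10 (SE) after Ang II, which did not pass the test (adjusted p = 0.059 by limma), and -1.19 ± 0.10 after potassium (adjusted p = 2.5e-06). Between Ang II and potassium it differed by 1.59 ± 0.10 (adjusted p = 2.2e-07), beside 1.72 for Hmga1. Fos had a log2 fold change of 0.20 ± 0.07 after Ang II and 0.21 ± 0.07 after potassium, and Jund of 0.06 ± 0.10 and -0.29 ± 0.10, none of which passed.

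Of 14 genes known as targets of AP-1, 4 rose after Ang II and none fell, and 1 rose and 1 fell after potassium. Over all probe sets 1.66% rose and 0.532% fell after Ang II, and 2.78% and 2.58% after potassium. The list, like the others, was drawn up with earlier results of these data known. The median log2 change of the 14 genes was 0.24 after Ang II and 0.09 after potassium. Those that rose after Ang II were Mmp3 (1.41 ± 0.15, SE), the urokinase receptor gene Plaur (0.58 ± 0.09), the urokinase gene Plau (0.45 ± 0.09) and the metalloproteinase inhibitor gene Timp1 (0.25 ± 0.06). Mmp3 is also among the genes named above for their values. The calls of Mmp3, Plaur, Plau and Timp1 ended in 1, 2, 10 and 17 settings. The other tested probe set of Plau was at 0.14 after Ang II and did not pass (adjusted p = 0.76 by limma). After potassium Gja1, which encodes a gap junction connexin, rose (0.43 ± 0.06, ended in 1), and Hmox1, which encodes heme oxygenase 1, fell (-0.29 ± 0.08, ended in 13). Mmp3, Plaur, Timp1 and Hmox1 were higher with Ang II than with potassium by the test of that difference, calls lost in 1, 4, 13 and 2 settings, and Gja1 was lower, a call lost in 2.

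**Figure D5:**
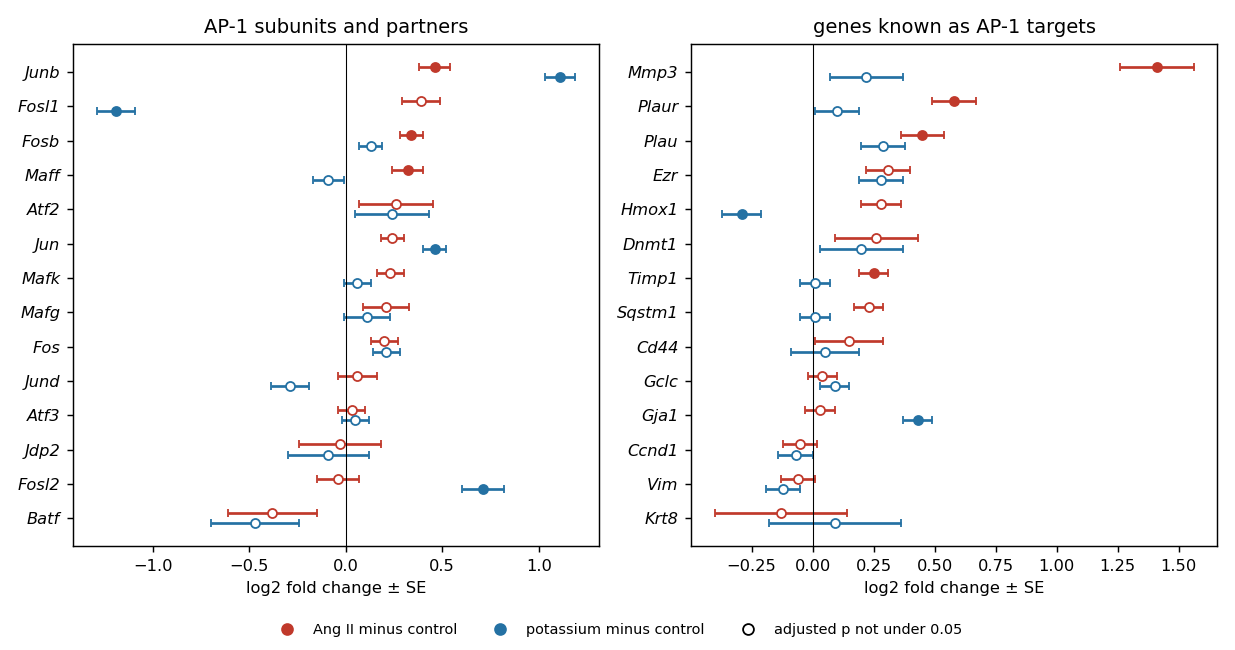
Log2 fold change ± SE (limma) after Ang II (red) and potassium (blue) for AP-1 subunits and partners (left) and genes known as AP-1 targets (right), 14 genes in each panel. Filled points passed an adjusted p of 0.05. Junb is higher after both stimuli, Fosl1 falls to -1.19 after potassium, and Mmp3, at 1.41, stands to the right of the other targets after Ang II.

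Some of the 7 genes are best known from other tissues, so markers of cells that could be present were set beside them. Of markers fixed for keratinocytes, 2 of 8 were bright enough to test, and of those for neurons and Schwann cells 6 of 12. None of these was called after either stimulus by limma, with 1 keratinocyte marker higher after Ang II and 1 neuronal marker higher and 1 lower after potassium at an unadjusted p under 0.05. The summed signal of the keratinocyte markers was 4272 to 5141 in the controls, 4995 to 5620.0 after Ang II and 4735 to 5583 after potassium, and that of the neuronal markers 1906 to 2268, 2133 to 2335 and 2051 to 2465. Most of the keratinocyte sum was Dsp, with a mean of 4032 in the controls, and Dsp was the marker of that list higher after Ang II. In both lists the ranges overlapped between groups. The summed adrenal medulla markers also overlapped, at 3543 to 4664, 3391 to 4316 and 3371 to 4631, and none of 10 was called, with 1 lower after each stimulus at an unadjusted p under 0.05. In the smooth muscle and pericyte list, 1 of 8 tested markers was called after Ang II, Acta2, which encodes smooth muscle actin (0.40 ± 0.10, adjusted p = 0.049 by limma), and 0 after potassium, also at an unadjusted p under 0.05. The summed signal of that list was 9387 to 11976 in the controls, 9973 to 13241 after Ang II and 9753 to 12479 after potassium. In the zona fasciculata list, 1 of 3 was called, Mrap, an accessory protein of the ACTH receptor, higher after Ang II (0.34 ± 0.08, adjusted p = 0.043 by limma) and after potassium (0.44 ± 0.08, adjusted p = 0.005). Markers of endothelium, macrophages, capsule fibroblasts, lymphocytes, red blood cells and adipocytes gave 0 calls by limma after either stimulus. At an unadjusted p under 0.05, 1 of them was higher and 1 lower after Ang II, and 3 were higher and 3 lower after potassium. The part of other cell types in the values of the 7 genes was not tested. Of 15 zona glomerulosa markers 13 were tested. Star, which carries cholesterol into mitochondria, rose after Ang II (0.29 ± 0.06, adjusted p = 0.024 by limma) and after potassium (0.34 ± 0.06, adjusted p = 0.0042), and Wnt4 fell after Ang II, as given above. Star, Cyp11a1 and Agtr1a had mean control signals of 18873, 24712 and 1839. Cyp11b2, the aldosterone synthase gene, was not analysed here. In such cell suspensions, a change in the share of a cell type and a change of RNA per cell cannot be told apart.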

How the data were processed

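RNA of 9 cell suspensions was read on 1-colour arrays of 31099 probe sets, 57 of them controls. The deposited values are linear signal intensities, 1 per probe set and array, made with GCOS per the submitters' processing notes; its version, the background step and the summary of probes are not stated in the labels or headers. The trimmed mean of each array was 500.2, so the authors' values were used without further scaling. The platform annotation, updated through RefSeq gene tables, gave 1 gene symbol to 20826 probe sets, several to 436 and none to 9780.

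Signals were taken as log2(signal + 16), which understates changes of dim genes. Probe sets with a mean above the 40th percentile (18625) were fitted with limma 3.58.1 (R 4.3.3; lmFit, contrasts, eBayes with an intensity trend), with group and preparation as terms, Benjamini-Hochberg adjustment and a threshold of 0.05. The series' design text says that each preparation gave 1 tube per group, which is where the pairing comes from; deviations from group means correlated at 0.09 to 0.27 between tubes of a preparation and at -0.21 to 0.05 between others. With 3 arrays a group, their number limits the precision.

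The 7 genes, the gene lists and the markers were chosen with earlier results of these data known. Named were all 7 genes, list genes called in a comparison and close relatives, the 8 genes most alike in profile, and the 8 with the largest Ang II change inside the members' bounds; genes of the narrower set were chosen after their values were seen. Alternatives were another pseudocount, filter and scaling, no preparation term, no trend, and leaving out each array or preparation.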

Additional observations from a re-analysis of the deposited data

How the results depend on the processing

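Of the recomputed changes of the probe sets of the 7 genes, 626 moved by less than 1 SD between preparations and 16 by more. Where all 3 preparations agreed in direction, 0 changed sign. Over the alternatives the Ang II change ranged from 2.67 to 3.28 for Fancc, 2.16 to 2.68 for Sprr1a, 1.53 to 1.84 for Dclk1, 1.14 to 1.70 for Klhl41, 1.69 to 2.28 for Slc17a6, 0.35 to 0.58 for Hmga1 and 0.78 to 0.95 for Csrnp1 (log2). The potassium change ranged from -0.66 to 0.04 for Fancc, -0.00 to 0.41 for Dclk1 and -0.06 to 0.61 for Klhl41, so its sign is not settled for these genes. Klhl41 and Slc17a6 were too dim for the 60th percentile filter and have no value there.

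Counts over all probe sets depended more on the settings than these values did. Without the preparation as replicate block, 197 probe sets were called after Ang II (409 with it), 506 after potassium (998) and 442 between the stimuli (892). Without the intensity trend the counts were 38, 258 and 156, and with median scaling 556 were called between the stimuli. Leaving out 1 array or 1 preparation gave 143 to 454 calls after Ang II, 432 to 977 after potassium and 275 to 1012 between the stimuli. After Ang II the count was 211, 221 and 233 without Ang II tube 1, 2 or 3, 244 without control 2, and 143, 254 and 244 without preparation 1, 2 or 3. After potassium it was 661, 611 and 646 without control 1, 2 or 3, 591 and 579 without potassium tube 1 or 2, and 432, 565 and 623 without preparation 1, 2 or 3. Between the stimuli it was 430, 486 and 576 without Ang II tube 1, 2 or 3, 516 and 549 without potassium tube 1 or 2, and 275, 537 and 553 without preparation 1, 2 or 3. Fewer samples were fitted in each of these; the cause of the other shifts was not tested. Of the recomputed values of related genes, 1444 stayed on their side of the threshold, 199 lost it and 28 passed it. Among those past the threshold in either fit, 0 changed sign.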
